A study of Mus musculus with 4 samples.

Results

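The interferon regulatory factors are transcription factors that share an N-terminal DNA-binding domain and recognise GAAA repeats in the promoters of interferon and interferon-stimulated genes. The 8 genes described here, Irf1, Irf2, Irf3, Irf4, Irf5, Irf7, Irf8 and Irf9, were chosen by name, out of 21467 protein-coding mouse genes with a known strand. For each gene, every open-chromatin peak was read from 20 kb before its 5′ end to 10 kb past its 3′ end. Promoter peaks were those whose summit was at most 1 kb from the transcription start site (TSS), taken as the 5′ end of the gene.

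In macrophages the family links the detection of microbial products to the interferon response. Irf3 and Irf7 are kept inactive in the cytoplasm until kinases downstream of nucleic acid and Toll-like receptors phosphorylate them, after which they switch on type I interferon genes, whereas Irf5 acts mainly on inflammatory cytokine genes. Secreted interferon then signals through receptor-associated kinases to a transcription factor complex that contains Irf9, and interferon gamma induces Irf1, while Irf2 competes with Irf1 for the same sites. Irf4 and Irf8 bind DNA poorly alone and join the macrophage factor PU.1, the product of Spi1, at composite elements.

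Chromatin accessibility was profiled by ATAC-seq, in which the Tn5 transposase cuts open DNA and tags the cut ends for sequencing, in RAW264.7 cells, a mouse macrophage line of wild-type genotype in the sample labels. All cells received 25 ug/mL DIL-oxLDL, an oxidized low-density lipoprotein that carries a fluorescent dye, for 24 h, so no library shows cells without the lipoprotein. The control group was treated with DMSO, the solvent (2 libraries, C1 and C2), and the esculetin group with 40 ug/mL esculetin, a plant coumarin (2 libraries, E1 and E2). The comparison asks whether accessibility at these genes differs with esculetin in lipid-loaded macrophages.

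Peaks had been called in each library separately, and the lists held 19595 peaks in C1, 27833 in C2, 8677 in E1 and 12792 in E2. The genome-wide background coverage, the measure of depth used here, was taken as the background value found most often among the peaks of a list. It was 6.51 in C1, 4.08 in C2, 4.97 in E1 and 4.10 in E2. E1 had the shortest list, and its background was neither the lowest nor the highest. What set the list lengths was not tested. Promoter peaks were called in 4 of 10 macrophage marker genes in C1, 5 in C2, 1 in E1 and 3 in E2 (37.3%, 38.8%, 27.9% and 34.9% of all protein-coding genes), with Spi1 in all 4 libraries and Csf1r, Adgre1, Itgam and Mertk in none, and at no marker gene of T cells, B cells, kidney epithelium and fibroblasts. The strength of a peak is given as its percentile by −log10 p within its own list, where 100 is the strongest. A percentile depends on how many peaks its list holds. The signal at an uncalled promoter is unknown, because read counts were not part of the lists. At the genome-wide background, the lowest summit coverage that was called was 17 reads in C1, 13 in C2, 15 in E1 and 13 in E2. In a pool of cells, fewer cells with an open site and less access per cell cannot be told apart.

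Promoter sequences are shown for the genes on which the promoter results turn, Irf1 and Irf2 (a peak in every library), Irf3 (called in both esculetin libraries and 1 control), Irf8 (among the weakest peaks) and Irf5 and Irf7 (no peak). Each runs 5′ to 3′ on the strand of the gene from 250 bases before to 50 bases after a RefSeq start in the build GRCm38.p6, whose chromosomes are those of mm10. All 8 genes were found in that table. Capitals mark matches, on either strand, to 7 motifs, of which adjoining or overlapping matches form 1 run. The windows are chr11:53769764-53770063 on the plus strand (Irf1), chr8:46739495-46739794 on the plus strand (Irf2), chr7:44997398-44997697 on the plus strand (Irf3), chr8:120736108-120736407 on the plus strand (Irf8), chr6:29526375-29526674 on the plus strand (Irf5) and chr7:141266375-141266674 on the minus strand (Irf7). The starts used for Irf5 and Irf7 lie 495 and 75 bp from the 5′ end of the gene.
Irf1: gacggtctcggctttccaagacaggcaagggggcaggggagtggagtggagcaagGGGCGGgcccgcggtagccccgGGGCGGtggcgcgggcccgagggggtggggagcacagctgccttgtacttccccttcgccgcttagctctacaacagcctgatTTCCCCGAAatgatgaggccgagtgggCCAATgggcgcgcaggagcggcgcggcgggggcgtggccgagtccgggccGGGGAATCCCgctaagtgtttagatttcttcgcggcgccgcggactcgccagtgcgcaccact
Irf2: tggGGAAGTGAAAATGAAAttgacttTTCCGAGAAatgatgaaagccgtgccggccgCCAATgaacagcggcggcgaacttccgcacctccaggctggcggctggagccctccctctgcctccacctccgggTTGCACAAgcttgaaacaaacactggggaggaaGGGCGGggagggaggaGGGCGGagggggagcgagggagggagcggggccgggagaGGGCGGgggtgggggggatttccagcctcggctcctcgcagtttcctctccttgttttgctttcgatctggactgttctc
Irf3: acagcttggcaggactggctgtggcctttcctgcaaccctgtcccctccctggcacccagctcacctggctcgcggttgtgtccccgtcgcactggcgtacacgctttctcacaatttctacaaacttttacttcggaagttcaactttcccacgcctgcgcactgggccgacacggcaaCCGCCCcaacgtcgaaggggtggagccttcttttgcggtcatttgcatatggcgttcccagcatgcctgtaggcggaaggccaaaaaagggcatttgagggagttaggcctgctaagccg
Irf8: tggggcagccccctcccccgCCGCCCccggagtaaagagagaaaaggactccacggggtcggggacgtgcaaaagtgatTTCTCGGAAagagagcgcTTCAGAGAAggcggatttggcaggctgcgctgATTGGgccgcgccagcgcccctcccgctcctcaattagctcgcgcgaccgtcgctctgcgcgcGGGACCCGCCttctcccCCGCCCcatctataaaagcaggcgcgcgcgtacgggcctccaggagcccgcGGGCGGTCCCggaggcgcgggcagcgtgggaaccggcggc
Irf5: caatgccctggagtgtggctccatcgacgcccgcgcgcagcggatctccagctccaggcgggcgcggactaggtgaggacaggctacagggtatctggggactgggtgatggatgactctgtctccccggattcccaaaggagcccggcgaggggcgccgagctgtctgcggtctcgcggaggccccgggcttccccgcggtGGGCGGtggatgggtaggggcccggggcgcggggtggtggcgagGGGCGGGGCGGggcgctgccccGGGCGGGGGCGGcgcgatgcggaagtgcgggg
Irf7: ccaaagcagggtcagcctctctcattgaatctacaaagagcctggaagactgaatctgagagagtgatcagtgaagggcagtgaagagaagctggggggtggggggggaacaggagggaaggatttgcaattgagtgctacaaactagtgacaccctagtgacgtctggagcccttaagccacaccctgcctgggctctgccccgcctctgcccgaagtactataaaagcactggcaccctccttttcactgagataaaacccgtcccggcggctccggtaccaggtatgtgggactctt

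The Irf2 promoter held the only match in the family to the core of an interferon-stimulated response element, GAAA repeated after any 2 bases, at positions -241 to -232 from the start. This core occurred in 3.4% of the 17492 promoters in the table. It overlaps a match to the composite element of an ETS factor such as PU.1 with an interferon regulatory factor, GGAA and then GAAA after any 2 bases, at -247 to -238, which 2.64% of promoters held. TTCNNNGAA, the gamma-activated site, was matched at -90 to -82 in Irf1, at -224 to -216 in Irf2 and at 2 places in Irf8, against 7.78% of promoters. CCAAT, the NFY box, was found in Irf1, Irf2 and Irf8 (39.2% of promoters), and TTGCNNAA, a C/EBP half-site pair, in Irf2 (10.1%). The NF-kB motif, GGGA and then CC after any 4 bases, was matched in Irf1, Irf4 and Irf8 (22.6%). The GC box GGGCGG was matched in 6 genes, Irf1, Irf2, Irf3, Irf4, Irf5 and Irf8 (46.3%). None of the 7 motifs was matched in the windows of Irf7 and Irf9. A match describes the letters of the window and was not tested as a binding site.

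Across the family, 5 of 8 genes had a promoter peak in C1, 6 in C2, 3 in E1 and 6 in E2, where 37.3%, 38.8%, 27.9% and 34.9% of all protein-coding genes had one. The mean was 5.5 ± 0.707 genes in control and 4.5 ± 2.12 in esculetin libraries (SD, n = 2 each), a difference of -1.0 that is smaller than the spread of the esculetin libraries and is 0.5 without E1. Promoter peaks of Irf1 and Irf2 were called in all 4 libraries (24.8% of all genes). Those of Irf4, Irf8 and Irf9 were called in all but E1 (5.56%), and that of Irf3 in all but C1 (0.685%). Irf5 and Irf7 had no promoter peak in any library (56.4%). No member was called only in the 2 controls (3.34%) or only in the 2 esculetin libraries (0.41%). In lists of equal length, the 8677 strongest peaks of each library, 2 members were called in C1, 1 in C2, 3 in E1 and 5 in E2 (25.6%, 18.1%, 27.9% and 30.2% of all genes), so the direction of the difference depends on the length of the lists.

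**Figure D1:**
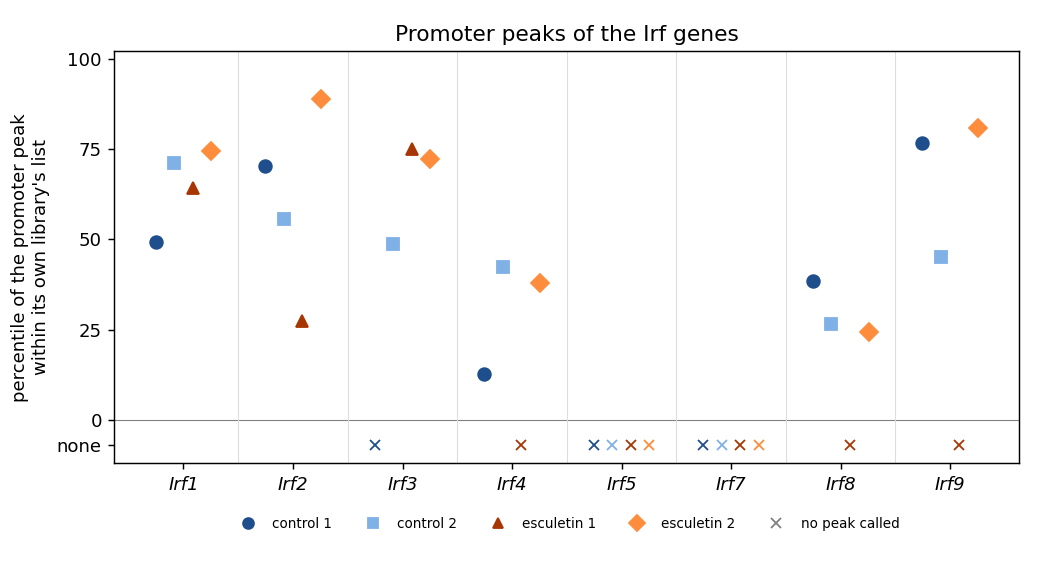
Percentile of the promoter peak within its own library's list (y axis, 0 to 100) for the 8 Irf genes (x axis), with 1 symbol for each library (control 1 and 2 are C1 and C2, esculetin 1 and 2 are E1 and E2) and a cross where no peak was called. Irf1 and Irf2 have 4 symbols each, Irf3 lacks C1, and Irf4, Irf8 and Irf9 lack E1.

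Irf1, the interferon gamma-inducible activator, lies at chr11:53770014-53778374 on the plus strand. Its promoter peak stood at percentile 49.4 in C1, 71.0 in C2, 64.3 in E1 and 74.5 in E2, with summits between -94 and -41 bp from the TSS. The groups overlapped, since C2 was above E1. The mean was 60.19 ± 15.3 in control and 69.38 ± 7.2 in esculetin libraries (SD, n = 2 each), a difference of 9.19 percentile points (exact permutation test, two-sided, p = 0.67, Benjamini-Hochberg adjusted p = 0.9 over 5323 genes). With 2 libraries against 2, the smallest p this test can give is 0.33, and none of the 5323 genes called in all libraries reached an adjusted p of 0.05. Without C1 the difference was -1.65. The peak was 273 bp wide in C1 and C2, 398 bp in E1 and 349 bp in E2. Both esculetin peaks were thus wider than both control peaks, as in 17.9% of all genes called in all 4 libraries, whereas the opposite held in 26.4%.

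Irf2, the antagonist of Irf1, lies at chr8:46739745-46847458 on the plus strand, and the start of the long noncoding RNA Gm16675 lies in the same promoter. The Irf2 peak stood at percentile 70.2 in C1, 55.6 in C2, 27.4 in E1 and 88.9 in E2. The esculetin libraries held both the lowest and the highest value, and both controls lay between them. The mean was 62.91 ± 10.3 in control and 58.18 ± 43.5 in esculetin libraries (SD, n = 2 each), and the difference of -4.73 was far inside that spread (exact permutation test, two-sided, p = 1.0, adjusted p = 1.0). It became 26.04 without E1 and 2.55 without C1. Summit coverage was 24 reads in E1 (95% Poisson interval 15.4 to 35.7) and 50 reads in E2 (37.1 to 65.9), and these intervals cover counting error only. The E1 peak was also the narrowest, 250 bp against 465 bp in C1, 434 bp in C2 and 470 bp in E2.

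Over Irf1 and Irf2, the members with a value in every library, the median difference was 2.23 percentile points, beside -4.35 over all 5323 genes. The median was -15.71 without E2, again over these 2 members. Without E1 it was 14.29 over 5 members, since Irf4, Irf8 and Irf9 then had a value in every remaining library. Percentiles that did not overlap between the groups were found in 44.3% of the 5323 genes, 14.7% with both esculetin values higher and 29.6% with both control values higher, and in neither Irf1 nor Irf2.

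Irf3, the factor that starts the type I interferon response, lies at chr7:44997648-45002848 on the plus strand and is transcribed away from Bcl2l12, a coding gene that starts within the same promoter. No promoter peak was called in C1. The peak stood at percentile 48.6 in C2, 75.1 in E1 and 72.1 in E2. Both esculetin values were above the only control value, by at least 23.49 points, and with an uncalled promoter taken as lowest both were above both controls, as in 10.3% of the genes called in at least 1 library (both controls were above both esculetin libraries in 33.0%). The peak was 213 bp wide in C2, 740 bp in E1 and 715 bp in E2, and C2 had another, weaker peak with its summit at -365 bp from the TSS (percentile 33.0) that the single peaks of E1 and E2 also covered in part. The summit lay at -46 bp from the TSS in C2, at -42 bp in E1 and at -10 bp in E2. No test was run, because C1 has no value, and which of the 2 genes the signal belongs to cannot be told apart. The gap and the widths of Irf3 were compared after the values had been seen.

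Irf7, which amplifies type I interferon production, lies at chr7:141263183-141266499 on the minus strand. It had no promoter peak, and the only peak of its window was in C1, at -2543 bp from the TSS and at percentile 30.5. Irf5, the inflammatory member, lies at chr6:29526130-29541869 on the plus strand and had no promoter peak either. A peak inside the Irf5 gene, 3050 to 3167 bp past the TSS, was called at percentile 64.0 in C1, 58.8 in C2 and 49.7 in E2 but not in E1. Another Irf5 peak, at -8830 bp, was called in C1 alone (percentile 51.7). When a peak near any RefSeq start in the promoter table was counted, the difference between the groups in members called was again -1.0.

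The Irf5 promoter was unlike those of most uncalled genes in its base composition. Its window is 74.7% G+C with a CpG observed over expected ratio (CpG count times length over the product of the C and G counts) of 0.889, where the median ratio was 0.838 over genes called in all 4 libraries and 0.28 over genes called in none. Of the 3229 promoters with a ratio at least as high, 21.5% had no call. The Irf7 window had 55.0% G+C and a ratio of 0.31, close to the median of the uncalled genes. Among the called members the ratio was 1.03 in Irf8, 0.912 in Irf1, 0.712 in Irf3, 0.673 in Irf2, 0.398 in Irf4 and 0.392 in Irf9. Within the family, a high ratio and a call did not go together gene by gene.

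Irf8, which directs monocyte and macrophage development, lies at chr8:120736358-120756694 on the plus strand. The peak at its promoter stood at percentile 38.4 in C1, 26.5 in C2 and 24.4 in E2, and was 200, 216 and 200 bp wide, at or near the shortest peak of any list (200 bp). Irf4, known for its roles in lymphocytes and in alternatively activated macrophages, lies at chr13:30749233-30766981 on the plus strand. Its promoter peak stood at percentile 12.8 in C1, 42.4 in C2 and 37.8 in E2. These genes had the lowest percentiles of the called members in each of C1, C2 and E2, and neither was called in E1. For both, the values of C2 and E2 were closer to each other than those of C1 and C2.

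Irf9, the DNA-binding subunit of the complex that answers type I interferon, lies at chr14:55603985-55610030 on the plus strand. Its peak stood at percentile 76.8 in C1, 45.2 in C2 and 80.9 in E2, with the summit 84 to 124 bp past the TSS. It was the strongest called member in C1, ranked below Irf1, Irf2 and Irf3 in C2, was the second strongest in E2, and was not called in E1. The peak was 293 bp wide in C1, 228 bp in C2 and 714 bp in E2. In Irf4 too the E2 peak was the widest (350 bp against 200 bp in C1 and 222 bp in C2), a pattern found in 31.3% of the genes called in these 3 libraries. For Irf4, Irf8 and Irf9 the missing calls fell in the library with the fewest peaks. In lists of equal length, Irf8 was called in no library, Irf4 in E2 alone, and Irf9 in C1 and E2. E1 was the shortest list, so its own calls could not change.

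Summit coverage divided by the genome-wide background of the same library gives a second, depth-scaled measure, chosen after the lists had been examined. For Irf1 it was 5.07 in C1, 8.58 in C2, 7.44 in E1 and 9.76 in E2. For Irf2 it was 5.68, 7.35, 4.83 and 12.2 in the same order, a mean of 6.52 ± 1.18 in control and 8.52 ± 5.21 in esculetin libraries (SD, n = 2 each), so the direction was opposite to that of the percentile and again inside the spread of the esculetin libraries. Irf3 had 6.86 in C2, 8.25 in E1 and 9.76 in E2, with 95% Poisson intervals of 4.56 to 9.92, 5.92 to 11.19 and 6.97 to 13.29 that overlap. For the members called in C1, C2 and E2 the values were 3.53, 5.88 and 6.1 in Irf4, 4.76, 5.15 and 5.61 in Irf8, and 6.61, 7.35 and 10.73 in Irf9. E2 was highest at all 6 called promoters, as at 43.2% of genes called in E2 and at least 2 other libraries, and C1 was the lowest called library at 4 of the 5 members called there, as at 55.1% of genes. The median over the promoters called in each library was 6.3 in C1, 8.58 in C2, 7.04 in E1 and 8.54 in E2. Neither Irf1 nor Irf2 had values that did not overlap between the groups, which 18.4% of genes called in all libraries had with both esculetin values higher and 10.3% with both control values higher.

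**Figure D2:**
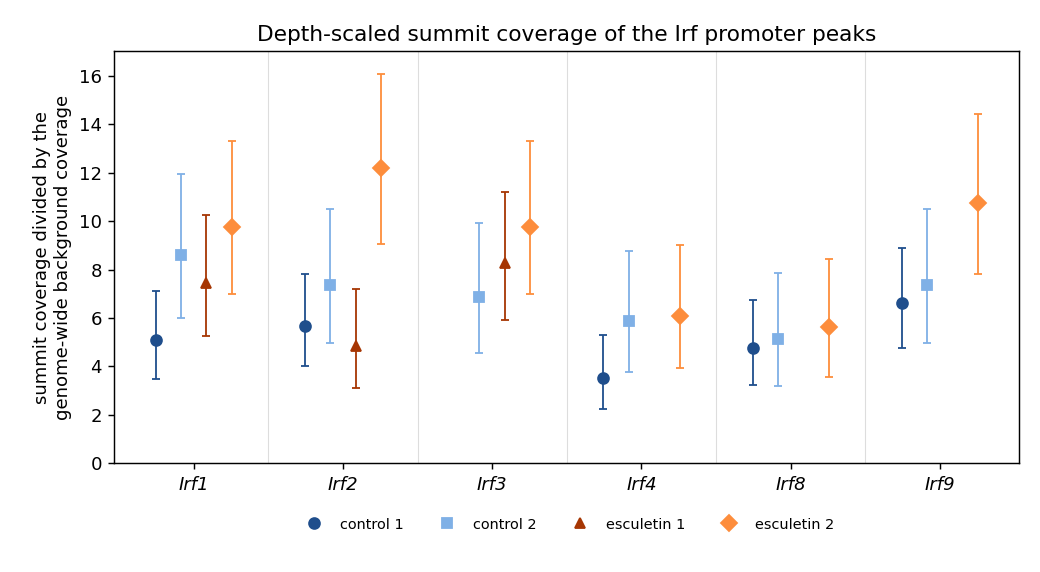
Summit coverage divided by the genome-wide background coverage (y axis, no unit) for the 6 Irf promoters with a peak (x axis), with 1 symbol for each library in which a peak was called and bars for the 95% Poisson interval of the coverage (counting error only). E2 is the highest symbol at every gene, from 5.61 at Irf8 to 12.2 at Irf2, and most intervals overlap.

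The strength of the members can also be read against the typical promoter. The median percentile over all called promoters was 72.0 in C1, 66.4 in C2, 60.3 in E1 and 67.5 in E2. Irf9 alone exceeded it in C1, Irf1 alone in C2, Irf1 and Irf3 in E1, and Irf1, Irf2, Irf3 and Irf9 in E2. The order of the members within a library changed between libraries, from Irf9, Irf2, Irf1, Irf8 and Irf4 in C1 to Irf2, Irf9, Irf1, Irf3, Irf4 and Irf8 in E2. Neighbours in these orders had overlapping coverage intervals, whereas in E2 the interval of Irf2 (37.1 to 65.9 reads) lay above those of Irf4 (16.2 to 36.9) and Irf8 (14.6 to 34.5).

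Beyond the promoters, the windows of the 8 genes span 424465 bp and held 56 peaks in 26 regions, a region being the union of peaks that overlap by at least 1 bp. C1 had a peak in 15 regions, C2 in 22, E1 in 5 and E2 in 11, a mean of 18.5 ± 4.95 in control and 8.0 ± 4.24 in esculetin libraries (SD, n = 2 each). Per 100 kb this was 3.77, 5.42, 1.41 and 2.59 peaks, against 1.57, 2.25, 0.807 and 1.12 over the windows of all protein-coding genes. Peaks with no coding TSS within 1 kb numbered 8 in C1, 13 in C2, 0 in E1 and 3 in E2. In the whole lists such peaks made up 60.6%, 70.7%, 38.7% and 47.1%. When each list was reduced to its 8677 strongest peaks, the distal peaks of the Irf windows numbered 4, 1, 0 and 3, and the regions with a peak numbered 8, 3, 5 and 10.

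**Figure D3:**
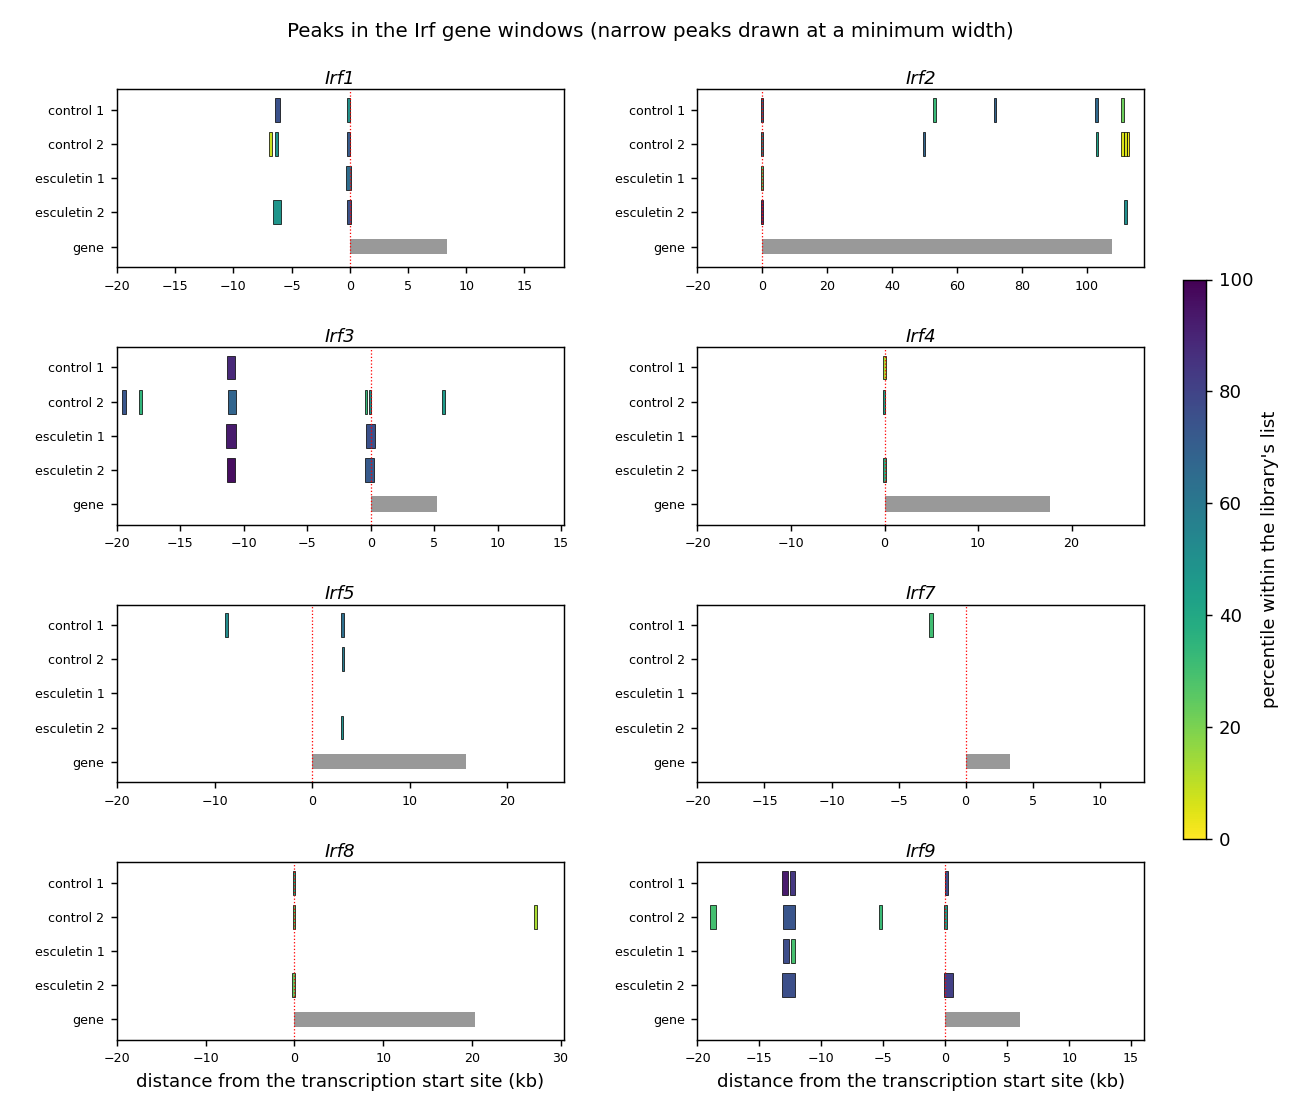
Position of every peak from 20 kb before to 10 kb past each Irf gene, as distance from the TSS in kb (x axis), with 1 row for each library and the gene as a grey bar, coloured by the percentile of the peak within its list. Peaks away from the TSS are mostly in the control rows, most clearly within and past Irf2.

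The strongest distal region of Irf1 lay with summits from -6325 to -5983 bp from the TSS, at chr11:53763439-53764133, and the summits were within 377 bp of the start of the microRNA gene Mir7671. It stood at percentile 75.1 in C1, 47.8 in C2 and 48.0 in E2 and was not called in E1. In C1 this region was thus stronger than the Irf1 promoter, and in C2 and E2 it was weaker. It was 1 of 5 regions called in all but E1, with the promoters of Irf4, Irf8 and Irf9 and the peak inside Irf5 (6.11% of all 36037 regions had this pattern).

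Regions called in both controls and no esculetin library numbered 2 (13.9% of all regions), and both belong to Irf2. One is inside the gene at chr8:46842697-46843199, with percentiles 66.1 in C1 and 42.4 in C2, and the other is past its 3′ end at chr8:46850564-46850934, with 22.5 and 5.1. A further region past the 3′ end of Irf2, at chr8:46851649-46851943, was called in C2 (percentile 5.9) and in E2 (50.6), a pattern of 1.34% of all regions. The other 13 regions were each called in 1 library, 9 in C2 alone (35.1%) and 4 in C1 alone (12.2%), at percentiles from 1.9 to 73.2. One of those in C2, in the Irf9 window at chr14:55584992-55585462, lies at the start of the coding gene Emc9 (percentile 30.0). No region was found only in the 2 esculetin libraries (0.832%). With equal lists no region was called in both controls and neither esculetin library, and 1 region, the Irf3 promoter, was in E1 and E2 and in neither control, a pattern that 4.11% of all genes then showed at their promoters (0.47% for the controls).

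The remaining 2 of the 4 regions called in all libraries (17.2%) belong to neighbours of the family. In the Irf3 window, the region at chr7:44986269-44987009 covers the starts of Prmt1, an arginine methyltransferase, and of the noncoding RNA Gm15545. It stood at percentile 88.6 in C1, 67.9 in C2, 92.8 in E1 and 96.5 in E2. Both esculetin values were above both controls, as in 14.5% of the 6181 regions called in all libraries (both controls were higher in 31.1%), and the difference was 16.4 points (exact permutation test, two-sided, p = 0.33, the smallest possible, adjusted p = 0.731). The value was 6.03 without C2 and 26.78 without C1. In the Irf9 window, the region at chr14:55590835-55591871 covers the starts of Psme2, a proteasome activator subunit induced by interferon, and Rnf31, a ubiquitin ligase. Its percentiles were 92.6 in C1, 73.8 in C2, 76.7 in E1 and 75.9 in E2, a difference of -6.93 (exact permutation test, two-sided, p = 1.0) that was 2.49 without C1.

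The genes around the family were read from a list of 50, of which 48 were matched and Mx1 and Mx2 were not. A promoter peak was called in 29 of the 48 in C1, 26 in C2, 21 in E1 and 24 in E2, where 37.3%, 38.8%, 27.9% and 34.9% of all genes were called. Of the 48, 17 were called in all 4 libraries (24.8% of all genes) and 17 in none (56.4%). Among 9 receptors, kinases and STATs, 9, 8, 8 and 8 were called, and 7 were called in every library. Those called in every library included the receptor subunits Ifnar1 and Ifngr1 and the receptor-bound kinases Jak1, Jak2 and Tyk2. Jak1 stood at percentile 93.7 in C1, 89.3 in C2, 80.4 in E1 and 86.7 in E2. Tyk2 stood at 61.5, 78.6, 47.6 and 59.5 in the same order. In these kinases both control values were above both esculetin values, which was not so for Jak2.

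**Figure D4:**
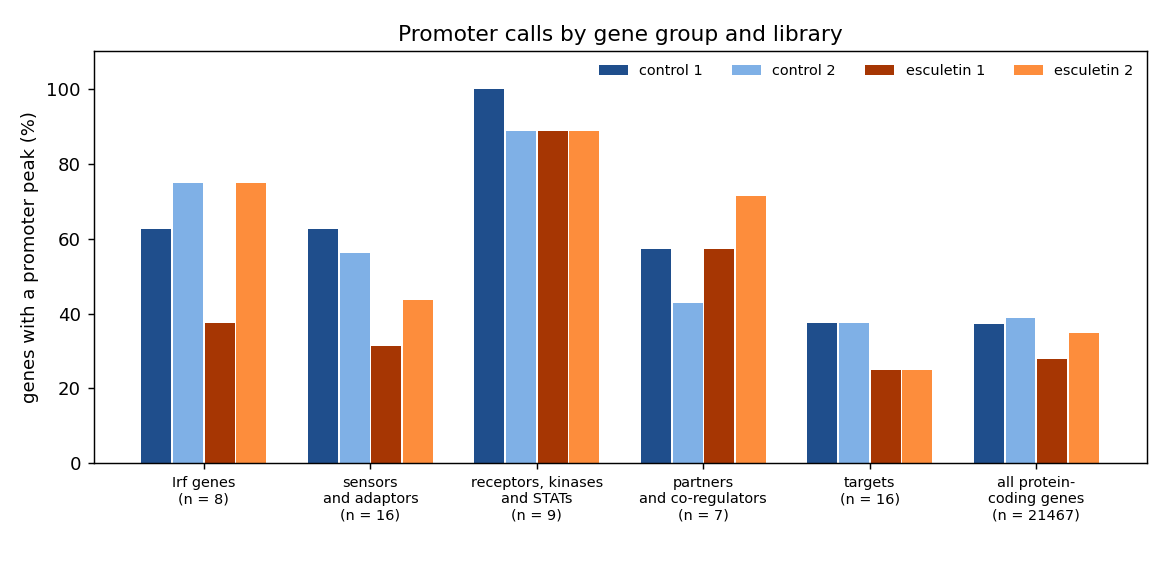
Share of genes with a promoter peak (y axis, percent) in the Irf family, in 4 groups of genes of the interferon pathway and in all protein-coding genes (x axis, with the number of genes), with 1 bar for each library. Receptors, kinases and STATs are called most often, 8 or 9 of 9, and the 8 Irf genes range from 3 in E1 to 6 in C2 and E2.

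Among 16 sensors and adaptors upstream of Irf3, Irf5 and Irf7, 10 were called in C1, 9 in C2, 5 in E1 and 7 in E2 (37.3%, 38.8%, 27.9% and 34.9% of all genes). Mavs, Ticam1, Irak4, Traf3 and Tbk1, the kinase of Irf3, were called in all libraries. Of these, Tbk1 alone had values that did not overlap between the groups, 79.3 in C1, 76.6 in C2, 63.1 in E1 and 68.8 in E2. The endosomal DNA receptor Tlr9 (percentile 47.7 in C1 and 65.3 in C2) and the cytosolic DNA sensor Cgas (38.4 and 42.8) were called in both controls and no esculetin library, as were 3.34% of all genes. Among 7 partners and co-regulators, 4, 3, 4 and 5 were called. Spi1, which encodes the partner of Irf4 and Irf8, stood at 66.5 in C1, 45.5 in C2, 17.1 in E1 and 50.0 in E2. Irf2bp1, a co-repressor that binds Irf2, was called in both esculetin libraries, at percentiles 8.9 and 11.6, and in no control.

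Of 16 matched target genes, 6 were called in C1, 6 in C2, 4 in E1 and 4 in E2, a share near or below that of all genes in each library. Tap1 and Psmb9, which start from 1 shared promoter and serve antigen presentation, had the same peak in all libraries. Oasl1, an antiviral gene of the oligoadenylate synthetase family, was also called in all, at percentile 70.8 in C1, 65.6 in C2, 97.2 in E1 and 94.3 in E2, with both esculetin values above both controls (14.7% of genes). Among the pathway genes called in all libraries, only Oasl1 had this, whereas Jak1, Tyk2 and Tbk1 had both control values higher (29.6% of genes). Oas2, an antiviral enzyme (12.8 in C1 and 33.8 in C2), and Usp18, a brake on interferon receptor signalling (73.6 and 66.5), were called in both controls only. Ifnb1, Isg15, Ifit1, Ifit3, Rsad2, Gbp2, Ciita, Nos2 and Il12b had no promoter peak in any library. Calls in both controls only thus covered 4 of the 48 genes and calls in both esculetin libraries only 1 of the 48, against 3.34% and 0.41% of all genes.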

How the data were processed

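ATAC-seq of 4 RAW264.7 libraries (2 DMSO, 2 esculetin, grouped by the treatment label) was analysed from the deposited peak lists. As the study's methods describe, the authors trimmed reads with Trim Galore, aligned them to mm10 with Bowtie2, removed duplicates and multimapped reads with Sambamba and called peaks per library with MACS2. Peak-calling options and any transposase shift are not given in the sources used here. The deposited columns hold the fold enrichment of the summit (a linear ratio), its −log10 p and −log10 q, and a score, which is 10 times that −log10 q cut to an integer. All peaks passed a q limit of 0.05.

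Percentiles of −log10 p were computed within each list. Summit coverage and background were solved from fold and p for peaks with a −log10 p under 60, which was tested on simulated data. Poisson intervals of coverage cover counting error only. Gene ends came from a RefSeq table of GRCm38.p6. The strand came from the RefSeq promoter table for 17492 coding genes and from GENCODE for 3975. A 5′ end can belong to a rarely used transcript. Exons and introns were not analysed here. Percentile differences were tested by an exact permutation test over the 4 libraries, adjusted by Benjamini-Hochberg. Nothing states that the libraries of a group came from separate cultures, so p-values measure only the spread between these libraries, which may be technical. Without read counts, the count model of the study was not run.

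The members, the pathway and marker lists and the tests were chosen with earlier results of these data known. All 8 members are named, with every region called in at least 2 libraries. Other genes are named where a summit in a member window lies within 1 kb of their TSS, or where a pathway gene is called in both libraries of only one group. The remaining pathway genes and the marker genes are named as examples, chosen after their values were seen. No gene is named for likeness to a member, since neither member called in all libraries had percentiles that did not overlap. Alternatives were leaving out each library, equal list lengths, a stricter q, other promoter and window sizes, percentiles of fold, of relative coverage or among regions called in all 4 libraries, leaving out peaks at other coding promoters, a 50% overlap for shared regions, any RefSeq start, and the replicate block. Python 3.11.15, pandas 2.3.3, NumPy 2.4.6 and SciPy 1.17.1 were used.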

Additional observations from a re-analysis of the deposited data

How the results depend on the processing

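Reducing each list to its 8677 strongest peaks turned the 2 differences in counts: members with a promoter peak went from -1.0 to 2.5 (2, 1, 3 and 5 genes in C1, C2, E1 and E2) and regions from -10.5 to 2.0, because the longer lists lose their weakest peaks. Controls-only regions then fell from 2 to 0, esculetin-only regions rose from 0 to 1, and Irf1, Irf2 and the median over members had no value, since no member was called in all 4 libraries. Leaving out 1 library gave -2.5 to 0.5 for the members, with the positive value without E1, and -14.0 to -7.0 for the regions. It gave 2 to 11 for controls-only regions (11 without C1, 6 without C2, 7 without E2) and 0 to 1 for esculetin-only regions (1, the Irf3 promoter, without C2). These patterns then rest on fewer libraries and are met more easily, so their counts are not like the main ones. The median over members ranged from -15.71 (2 members, without E2) to 14.29 (5 members, without E1), so it covers unlike sets of genes. This median also became -0.28 with percentiles of fold and 18.76 with percentiles among the regions called in all 4 libraries. The Irf1 difference ranged from -1.65 (without C1) to 20.02 (without C2) and was 21.29 with percentiles among the regions called in all 4 libraries. The Irf2 difference ranged from -35.5 (without E2) to 26.04 (without E1), was 2.55 without C1, and was 16.24 with those percentiles. The Prmt1 region kept its direction, from 6.03 to 26.78, and had no value with equal lists. The Psme2 and Rnf31 region ranged from -16.34 to 2.49 (without C1) and was 20.94 with equal lists. The Irf3 gap was 18.38 with percentiles of fold, 23.21 with a −log10 q of at least 2, 23.51 with relative coverage and 26.51 without E2. It had no value without C2 or with equal lists, and the other alternatives could not change it or left its peaks as they were. Without peaks at other coding promoters the region difference was -10.0, and with that setting or a 50% overlap the controls-only and esculetin-only counts stayed at 2 and 0. The cause of these shifts other than list length was not tested.

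No pairing by replicate number was seen: the correlation of the replicate differences between the groups was -0.001 over 6181 regions and 0.006 over 5323 genes, and the peaks of E1 and E2 carry other replicate numbers in their names. With a single replicate difference in each group, these values cannot exclude that libraries of equal number shared a culture or batch. With the replicate block the values were unchanged, 9.19 for Irf1 (exact sign-flip test, two-sided, p = 0.5, pair differences 14.9 and 3.5), -4.73 for Irf2 (p = 1.0, pair differences -42.8 and 33.3) and 2.23 for the median. With 2 pairs, the smallest p that the two-sided sign-flip test can give is 0.5. The alternatives with relative coverage, with any RefSeq start and for the Irf3 gap and the 2 neighbouring regions were chosen after seeing the data. Depth and list length limit what an uncalled promoter shows, and 2 libraries per group limit every test.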
